A study of Homo sapiens with 2 samples.

Results

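The genes described here are 40 protein-coding genes of the NF-kB pathway and of inflammation, on a list of names drawn up with earlier results of these data known, out of 19974 protein-coding genes placed on chromosomes 1 to 22 and X by RefSeq. They were examined for peaks of DEK, an abundant nuclear protein that binds chromatin and histones, in ChIP-seq of the line 786-O, which was derived from a human renal carcinoma and lacks functional VHL. The data are 2 libraries of 1 group, replicates 1 and 2 of wild-type 786-O cells labelled as negative control of a Cas9 experiment, with DEK given as the antibody. No edited cells, input or other antibody were analysed here, so every comparison sets the 40 genes against other genes and no test between conditions was possible. Since the labels name no separate cultures, the differences between the replicates may be technical only.

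NF-kB is a family of dimeric transcription factors that is held in the cytoplasm by inhibitory IkB proteins. Signals from tumour necrosis factor, interleukin-1 and pattern receptors run through TRAF adaptors, ubiquitin ligases and kinases to the degradation of these inhibitors, and the freed dimers switch on chemokines, cytokines, adhesion molecules and their own inhibitors. Renal carcinoma cells are known to secrete several of these products, among them interleukin-6 and interleukin-8. DEK has been described as a partner of the NF-kB subunit RELA at some promoters, which is background and was not examined here.

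Peak calling gave 19015 peaks in replicate 1 and 24457 in replicate 2 on the chromosomes used, with a median fold enrichment at the summit of 3.99 and 3.89 over the background estimated by the authors' peak caller. The median summit rested on 19 overlapping fragments in each library, a number solved from the deposited fold enrichment and p, so that counting error is wide for any 1 peak. Peaks of the 2 libraries that overlapped by at least 1 bp formed 12590 shared regions. A gene was given a region that overlapped its annotated span or the 3 kb on either side. By the position of its summit the region was at a gene end (within 1 kb of either annotated end), in the body (further inside) or in the flank. Peaks do not measure expression, so the labelled cell type was not checked: a shared region was found in 2 of 5 renal marker genes (median length 62.9 kb), 2 of 7 immune cell markers (11.4 kb) and 3 of 3 endothelial markers (71.4 kb), against 26.8% of all protein-coding genes. A gene without a peak had none that passed the authors' threshold at this depth, and DEK may still be present there.

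Of the 40 genes, 14 had a shared DEK region (35.0%), against 26.8% of all protein-coding genes. Another 10 had peaks of 1 library that did not overlap a peak of the other, so that 24 had any peak, against 47.4% of all protein-coding genes. The remaining 16 had no peak in either library, and these include TNF, IL6, IL1A, IL1B, NFKBIA, NFKB1 and TNFAIP3, some of the best known genes of the pathway. Shared regions at a gene end were found in 6 genes (CXCL8, CSF2, CCL20, TNFAIP2, IL6R and TRAF2), 15.0% against 6.34% of all protein-coding genes. Regions in the body were found in 9 genes, 22.5% against 18.8%. The shared regions numbered 34, of which 27 lay in gene bodies, 6 at gene ends and 1 in a flank, and 20 of them belonged to 4 genes (IL6R, TNIP1, IL1R1 and either SOD2 or TRAF2, which had the same number). The genes are described below by role. Each role has only 3 to 7 genes, so a count within a role, beside 26.8% of all protein-coding genes, shows no trait of that role.

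The 44 peaks of replicate 1 and the 59 of replicate 2 that lay in these genes included 34 each in shared regions, 77.3% and 57.6%, against 67.8% and 52.2% of all peaks. Peaks that were not shared had fewer fragments. Their median summit held 17.5 fragments in replicate 1 and 22 in replicate 2, where the shared ones held 27 and 27.5.

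**Figure D1:**
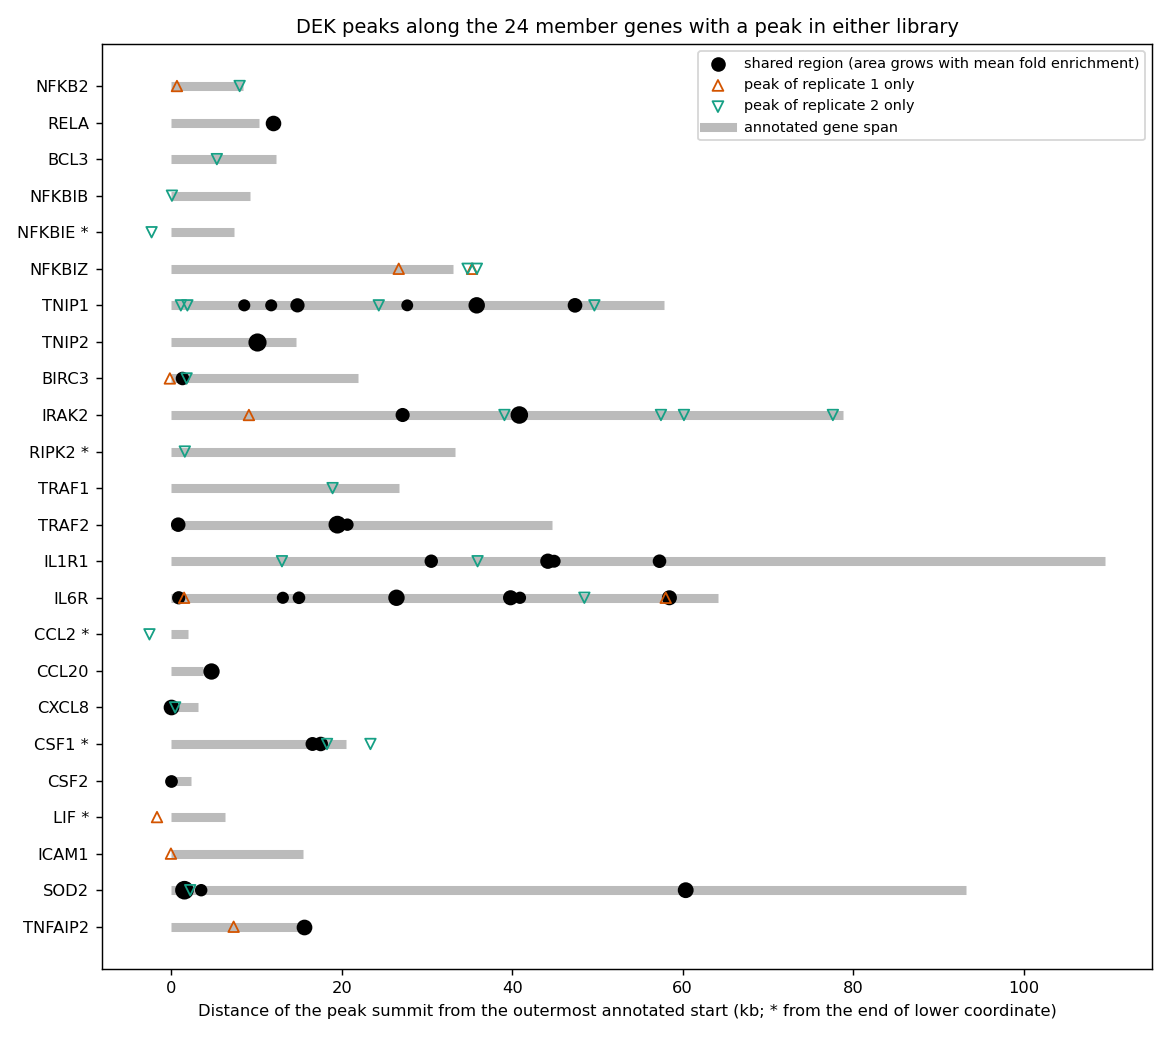
Peak summits along the 24 genes with a peak in either library, in kb from the outermost annotated start (from the end of lower coordinate for the genes with an asterisk, which have no strand in the tables used). Black circles are the 34 shared regions, triangles are peaks of 1 library only, and grey bars are the annotated spans; the circles of IL6R and TNIP1 run through most of the gene, while those of CXCL8 and CSF2 sit at the start.

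Of the 5 genes of the transcription factor subunits, only RELA, which encodes the main activating subunit, had a shared region, against 26.8% of all protein-coding genes. It lay on chromosome 11 at 65651636 to 65652123, 1690 bp beyond the end opposite the start of RELA, and its summit was also within 1 kb of the neighbouring gene SIPA1. Its fold enrichment was 3.84 in replicate 1 and 4.57 in replicate 2 (4.21 ± 0.517, SD, n = 2). NFKB2, the precursor of the non-canonical pathway, had 1 peak in each library, but at opposite ends of the gene. The replicate 1 peak lay 679 bp after the start with a fold enrichment of 3.12 and the replicate 2 peak 386 bp from the other end with 3.36, so no region was shared. NFKB1, REL and RELB, the other subunits, had no peak. The shared region nearest to NFKB1 was 1301 kb away, the largest such distance among the 40 genes, where the 26 genes without a region had a median distance of 62.4 kb and the 14588 other protein-coding genes without one a median of 82.9 kb.

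None of the 5 genes of IkB and IkB-like proteins had a shared region. NFKBIA, the IkB that is itself switched on by NF-kB, had no peak in either library. NFKBIB, another cytoplasmic IkB, had a replicate 2 peak 91 bp after its start with a fold enrichment of 4.57 on 16 fragments, and no peak of replicate 1 within 20903 bp of it. BCL3, a nuclear IkB-like protein, had 1 peak of replicate 2 in its body with a fold enrichment of 3.16, and NFKBIE had 1 of replicate 2 in its flank with 3.601. NFKBIZ, which encodes another nuclear IkB-like protein, had 2 peaks in each library. The nearest pair, beyond the end opposite the start, was separated by 55 bp and therefore did not count as shared.

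The genes of feedback regulators differed among themselves. TNFAIP3, the ubiquitin-editing enzyme A20 that shuts the signal off, had no peak, and the nearest shared region was 546 kb away. TNIP1 and TNIP2 encode proteins that bind A20 and ubiquitin chains. TNIP1, on chromosome 5 with a span of 57.7 kb, held 6 shared regions, all in its body. The strongest TNIP1 region, at 151051678 to 151052080, had fold enrichments of 4.603 and 4.62 in replicates 1 and 2, and the weakest, at 151059921 to 151060193, had 2.74 and 2.47. TNIP1 also held 4 peaks of replicate 2 alone, 2 of them within 2 kb of the outermost start, where replicate 1 had none. The start that RefSeq uses for the TNIP1 promoter lies 22.6 kb inside the gene, and 3 of the 6 regions lay upstream of it. TNIP2, on chromosome 4, had 1 region in its body at 2745884 to 2746605, with fold enrichments of 5.33 and 5.599, among the highest of the 34.

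Among the adaptors, ligases and kinases, TRAF2, BIRC3 and IRAK2 had shared regions, and TRAF1, BIRC2 and RIPK2 did not. TRAF2, which carries ubiquitin ligases to tumour necrosis factor receptors, had 3 regions on chromosome 9. The widest region of the 34, 1387 bp, lay 19.5 kb after the outermost start of TRAF2 at 136900646 to 136902032, with fold enrichments of 5.43 and 5.12 in replicates 1 and 2. The region counted as a gene end of TRAF2, at 136882580 to 136882933, lay 829 bp after the outermost start, with 4.23 and 3.21, but at -3729 bp from the start that RefSeq uses for the TRAF2 promoter. IRAK2, a kinase of interleukin-1 and Toll-like receptor signalling, had a region 40.8 kb after its start whose fold enrichment was 4.26 in replicate 1 and 6.06 in replicate 2. The libraries differed there by 0.51 on the log2 scale, the largest difference among the 34 regions. BIRC3, a ubiquitin ligase that NF-kB itself induces, had a shared region with its summit 1236 bp after the start, just outside the window for gene ends, with 3.42 and 3.15. Nearer to the BIRC3 start there was a peak in replicate 1 only, at -154 bp, with a fold enrichment of 2.85. RIPK2, the kinase that serves the NOD receptors, and TRAF1 each had 1 peak of replicate 2 in the body, with 3.997 and 3.07.

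The receptor genes IL6R and IL1R1 held, with TNIP1, the most shared regions of the 40 genes, while IL6ST, the signal-transducing chain shared by the interleukin-6 family, had no peak. IL6R, which encodes the ligand-binding chain for interleukin-6, held 7 shared regions over 64.1 kb on chromosome 1. The strongest, at 154431460 to 154432208, had fold enrichments of 4.396 and 4.79 in replicates 1 and 2, and the region at its end, 886 bp after the start at 154405974 to 154406442, had 3.42 and 2.89. The summits of the IL6R end region were 303 bp apart, at 1038 bp after the start in replicate 1 and 735 bp in replicate 2, and it also lay at the antisense RNA gene IL6R-AS1. IL1R1, the signalling receptor for interleukin-1, held 4 regions, from 30.5 to 57.3 kb after its outermost start. The start that RefSeq uses for the IL1R1 promoter lies 34.2 kb inside the gene. From that start the first region was at -3.71 kb and the others at 9.97 to 23.1 kb. The strongest IL1R1 region, on chromosome 2 at 102114234 to 102114827, had 3.51 in replicate 1 and 4.65 in replicate 2.

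Of the 6 chemokine genes, CXCL8 and CCL20 had a shared region and CXCL1, CXCL2 and CXCL3 had no peak at all, while CCL2 had 1 peak of replicate 2 in its flank with a fold enrichment of 4.25. CXCL8 encodes interleukin-8, which attracts neutrophils. Its region lay over the start, on chromosome 4 at 73740265 to 73740753, with fold enrichments of 4.45 and 4.07 in replicates 1 and 2 (4.26 ± 0.268, SD, n = 2). The CXCL8 summit held 15 fragments in each library (95% exact Poisson interval 8.40 to 24.7, counting error only). It lay at -164 bp in replicate 1 and at 104 bp in replicate 2, on either side of the start. CXCL8 did not keep an end region when peaks had to overlap by 50% of each, or to have summits within 100 bp. The chemokine genes from CXCL8 to CXCL2 span 359 kb, and the CXCL8 region was the only shared region in that stretch. CCL20, which encodes the ligand of CCR6, had its region 947 bp beyond the end opposite the start, on chromosome 2 at 227818180 to 227818989, with 4.65 and 4.48 on 37 and 39 fragments.

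CSF2, which encodes the granulocyte-macrophage colony-stimulating factor, was the only other gene with a region across its start. The CSF2 region, on chromosome 5 at 132073644 to 132073952, was weak, with fold enrichments of 3.21 in replicate 1 and 2.68 in replicate 2 (2.94 ± 0.379, SD, n = 2), at the 6.21th percentile of all shared regions (the mean of a region's percentile ranks in the 2 libraries). Its summits were close together, at -42 bp and 5 bp from the start, and held 22 and 20 fragments. CXCL8 and CSF2 were the only 2 of the 34 genes with a RefSeq promoter whose promoter, from 250 bases before to 50 after the start, overlapped a shared region (5.88%, against 3.83% of the 15813 protein-coding genes with one). With only 2 genes, nothing can be read from the difference between these shares. The 250 bases before the start are shown for CXCL8 and CSF2 and for the 3 chemokine relatives of CXCL8 without a peak. This choice was made after the values were seen. The shown CXCL8 bases lie under the replicate 1 peak, while the replicate 2 peak, at 73740551 to 73740753, covers only the last few of them. The first of the shown CSF2 bases lie before its region. Sequences are from RefSeq (GRCh38.p14), 5′ to 3′ on the strand of the gene, and capitals mark matches to the searched motifs.
CXCL8 (plus strand, chr4:73740319-73740568): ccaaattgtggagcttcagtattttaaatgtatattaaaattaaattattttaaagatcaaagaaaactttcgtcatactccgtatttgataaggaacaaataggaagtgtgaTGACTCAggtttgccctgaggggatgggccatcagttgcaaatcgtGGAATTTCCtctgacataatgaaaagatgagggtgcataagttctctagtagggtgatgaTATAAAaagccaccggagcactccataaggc
CSF2 (plus strand, chr5:132073539-132073788): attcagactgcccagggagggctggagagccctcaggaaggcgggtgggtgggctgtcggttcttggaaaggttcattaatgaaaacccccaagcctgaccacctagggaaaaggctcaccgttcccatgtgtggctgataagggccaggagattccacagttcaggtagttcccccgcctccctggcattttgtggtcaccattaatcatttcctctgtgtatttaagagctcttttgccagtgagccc
CXCL1 (plus strand, chr4:73869143-73869392): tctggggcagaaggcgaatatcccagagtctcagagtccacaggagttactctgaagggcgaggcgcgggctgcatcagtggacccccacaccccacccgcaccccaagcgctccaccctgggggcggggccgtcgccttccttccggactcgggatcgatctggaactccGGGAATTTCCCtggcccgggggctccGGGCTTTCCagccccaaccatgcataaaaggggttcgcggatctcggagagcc
CXCL2 (minus strand, chr4:74099196-74099445): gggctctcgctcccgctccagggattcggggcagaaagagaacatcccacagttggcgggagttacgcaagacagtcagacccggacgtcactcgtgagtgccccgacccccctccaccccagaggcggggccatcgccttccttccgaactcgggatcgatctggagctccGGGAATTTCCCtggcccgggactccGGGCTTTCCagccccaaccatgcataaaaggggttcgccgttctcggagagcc
CXCL3 (minus strand, chr4:74038690-74038939): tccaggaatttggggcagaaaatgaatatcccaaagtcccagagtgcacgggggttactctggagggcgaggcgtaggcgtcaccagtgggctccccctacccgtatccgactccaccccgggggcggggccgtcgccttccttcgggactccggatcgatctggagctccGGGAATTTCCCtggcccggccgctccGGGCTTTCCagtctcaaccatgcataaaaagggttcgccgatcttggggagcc

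The motifs were searched on both strands. They were the kappaB consensus to which NF-kB dimers bind, a shorter kappaB form GGNNTTTCC that was added after the sequences were seen and overlaps the consensus in CXCL1, CXCL2 and CXCL3, the AP-1 motif TGANTCA, the cyclic AMP element TGACGTCA, the CEBP motif TTNNGCAAT and the TATA box TATAAA. The 250 bases of CXCL8 held the AP-1 motif at -137 to -131, the shorter kappaB form at -91 to -83 and the TATA box at -31 to -26, counted with the start as 0. Those of CSF2 matched none of the 6 patterns as written. An NF-kB site with other letters would be missed, so CSF2 cannot be said to lack one. The CXCL8 matches lay under the replicate 1 peak only. CXCL1, CXCL2 and CXCL3 each held the consensus and a further copy of the shorter form at -53 to -45. The bases shown were G or C in 37.6% for CXCL8 and 54.0% for CSF2, against 65.6% for CXCL1, 64.4% for CXCL2 and 62.8% for CXCL3. Low values were not confined to promoters with a region. The RefSeq promoter of IL1A was G or C in 39.7% and held AP-1 and TATA, and that of IL1B in 42.3%, but neither had a peak. The median was 59.3% in the 605 promoters overlapping a shared region and 63% in the 15208 without. The few sequences shown therefore do not describe promoters with a region in general. Over the 300 bases of the RefSeq promoter, 13 of 34 genes held the consensus (38.2%), among them NFKBIA, TNFAIP3, IL6, VCAM1 and BIRC3, against 6.37% of all 15813 promoters. The shorter form was in 16 (47.1%, against 6.47% of all), the same 13 with CXCL8, ICAM1 and TNFAIP2. Since that form was added after sequences of the list were seen, its share is no separate result. None of the 13 promoters with the consensus overlapped a shared DEK region, where the share of all promoters with the consensus (28 of 1007, 2.78%) gives 0.361 of 13, so that nothing can be read from the 0. A match describes letters and does not show binding, and its absence covers these windows and these exact patterns only.

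CSF1, the macrophage colony-stimulating factor, held 2 neighbouring regions in its body on chromosome 1, where 4.61% of 2257 genes of similar length had 2 or more. The region at 109927682 to 109928506 had fold enrichments of 4.18 in replicate 1 and 3.26 in replicate 2, and that at 109926857 to 109927522 had 3.61 and 3.31. These CSF1 summits held 46 to 55 fragments, more than the median of 19, over a local background of 12.0 to 13.4 fragments. Replicate 2 had a further 2 CSF1 peaks that were not shared, with a fold enrichment of 2.42 in the body and 2.69 in the flank. LIF, a cytokine of the interleukin-6 family, had 1 peak of replicate 1 in its flank with a fold enrichment of 2.97. TNF, IL6, IL1A and IL1B had no peak, and the nearest shared region was 14.8 kb from TNF, 127 kb from IL6, 81.2 kb from IL1A and 102 kb from IL1B.

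Among the adhesion and effector genes, SOD2 and TNFAIP2 had shared regions. SOD2, the mitochondrial superoxide dismutase, held the strongest of the 34, on chromosome 6 at 159760515 to 159761186, with fold enrichments of 5.45 and 5.98 in replicates 1 and 2 (5.72 ± 0.372, SD, n = 2) at the 91.0th percentile of all shared regions. It lay 1561 bp after the outermost annotated start of SOD2, at the overlapping gene SOD2-OT1. The annotated span of SOD2 is 93.2 kb and contains the whole gene WTAP, and the start of the RefSeq promoter lies 34.9 kb inside it, so that this region was at -33.3 kb from that start. TNFAIP2, a protein induced by tumour necrosis factor, had a region of 1041 bp at the end opposite the start, on chromosome 14 at 103136729 to 103137769, with 4.22 and 4.31. The TNFAIP2 summits were 420 bp apart. ICAM1, an adhesion molecule for leukocytes, had 1 peak of replicate 1 at -26 bp with a fold enrichment of 4.37 on 18 fragments, and none of replicate 2 within 18973 bp. VCAM1 and PTGS2, the inducible cyclooxygenase, had no peak.

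A region finds more room in a long gene, and the 40 genes were shorter than other protein-coding genes, with a median length of 15.1 kb against 24.2 kb. They were therefore set beside the other protein-coding genes of 80% to 125% of each gene's length, of which there were 595 to 2387 per gene. The share with a shared region at an end was 15.0% in the 40 genes and 6.82% in genes of similar length, and the share with a region in the body was 22.5% and 12.9%. With a region anywhere in the gene or the 3 kb around it the shares were 35.0% and 22.5%. In counts, 14 of the 40 had a region where the share of genes of similar length gives 8.99, and 6 had a region at an end where it gives 2.73. These are descriptions of 1 list of genes, with no test. By length, an end region was found in 3 of 16 genes under 10 kb (18.8%, against 7.07% of other genes), 1 of 11 genes of 10 to 30 kb (9.09% against 7.77%) and 2 of 13 genes over 30 kb (15.4% against 4.94%). None of the 16 short genes had a region in the body, against 2.64% of other short genes. The body leaves out 1 kb at each end, so the shortest, such as CXCL1 with 1916 bp, could hold none. Nothing can be read from this 0. A region in the flank alone was found in 1 of the 40 genes (2.5%), against 3.65% of genes of similar length. With end windows of 500 bp 3 genes had an end region (7.5%, against 4.46% of all protein-coding genes), and with windows of 3 kb 10 had one (25%, against 13.2%). When a fold enrichment of at least 5 was required 0 had one, against 0.521% of all protein-coding genes.

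**Figure D2:**
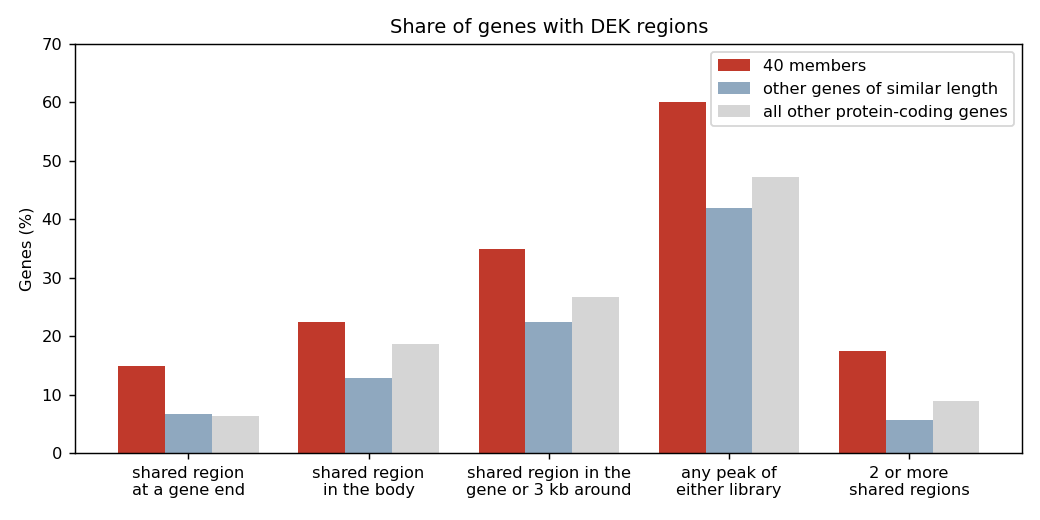
Percentage of genes with DEK regions or peaks in the 40 genes (red), in other protein-coding genes of similar length (blue) and in all other protein-coding genes (grey). The 40 genes stand highest in each of the 5 measures shown, at 15.0%, 22.5%, 35.0%, 60% and 17.5%; the bars are shares of genes and have no replicate error.

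The side of the gene could be told for 34 genes, those with a strand in the RefSeq promoter table (the 6 others were CSF1, NFKBIE, RIPK2, CCL2, RELB and LIF). A shared region lay within 1 kb of the outermost start in 4 of them (CXCL8, CSF2, IL6R and TRAF2), against 4.86% of protein-coding genes with a strand, and within 1 kb of the other end in 2 (CCL20 and TNFAIP2), against 2.04%. Both CCL20 and TNFAIP2 kept their end region among peaks with a -log10 q of 5 or more in each library, and none of the 4 at the start did. Other filters gave another order. With 50% reciprocal overlap CCL20, CSF2, IL6R and TRAF2 kept theirs, and with summits within 100 bp CCL20, CSF2 and TRAF2. TNFAIP2 and CXCL8 lost theirs under both.

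Genes with several regions were also counted. In 7 of the 40 genes there were 2 or more shared regions (17.5%), against 9.05% of all protein-coding genes and 5.66% of genes of similar length. The genes with the most regions were then set beside genes of similar length, so that they were picked by the count compared. IL6R with its 7 regions had more than all but 6 of 1921 such genes (0.312% had 7 or more), whose mean was 0.543 regions. TNIP1 with 6 was matched or exceeded by 8 of 2094 genes (0.382%), whose mean was 0.495, and IL1R1 with 4 by 57 of 1527 (3.73%). The 40 genes held 34 regions where the mean of genes of similar length gives 12.6. Over the summed spans with their flanks they had 2.60 shared regions per 100 kb, against 0.643 in other protein-coding genes, and 1.61 without IL6R, TNIP1 and IL1R1, which held 17 of the 34. Short genes have more regions per 100 kb in general, so the values were also taken by length. They were 1.75 regions per 100 kb against 1.499 in other genes under 10 kb, 2.39 against 1.14 from 10 to 30 kb, and 2.82 against 0.545 over 30 kb. The last class is not matched for length: its longest gene had 115944 bp in the list and 2473620 bp among other genes. Of its 25 regions in the list, 17 belonged to IL6R, TNIP1 and IL1R1, and its value without these genes was not taken.

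**Figure D3:**
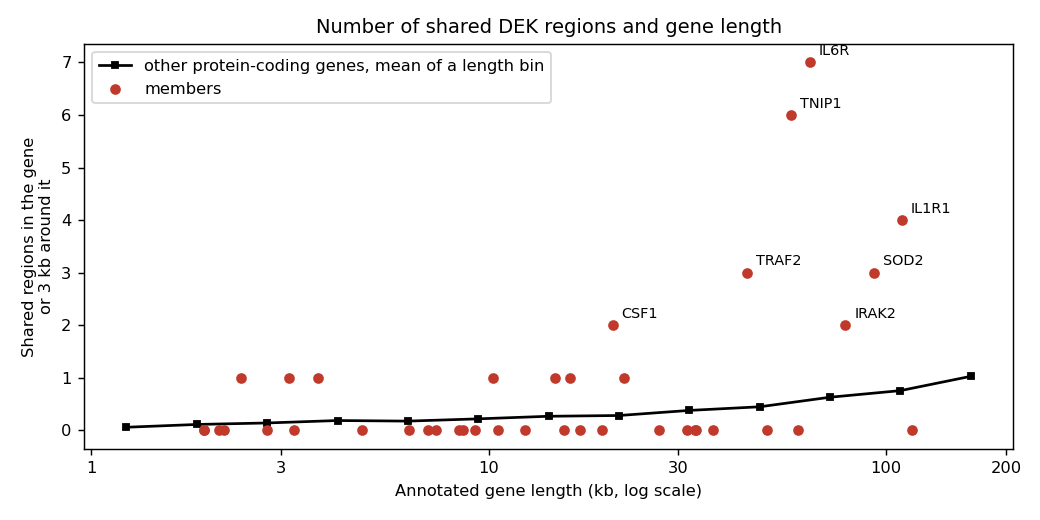
Number of shared DEK regions in a gene or the 3 kb around it against annotated gene length in kb on a log scale, for the 40 genes (red points, with names from 2 regions up) and as the mean of other protein-coding genes in bins of length (black line). IL6R with 7 regions and TNIP1 with 6 stand furthest above the line, and 26 of the 40 genes are at 0.

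The shared regions of the 40 genes were weaker in fold enrichment than shared regions at large. Their median was 3.66, from 2.60 at TNIP1 to 5.72 at SOD2, against 4.12 over all 12590, and by the mean of the percentile ranks in the 2 libraries 16 of 34 lay below the 25th percentile (47.1%, against 20.2% of all) and 4 above the 75th (11.8% against 20.02%). The summits nevertheless held more fragments, with medians of 27 and 27.5 in replicates 1 and 2 against 21 and 22. The local background, solved from the same values, had medians of 6.43 and 7.07 fragments against 4.201 and 4.52, and in 22 of the 34 regions (64.7%, against 22.96% of all) it lay above the 75th percentile in both libraries. Fold enrichment is the ratio of these quantities, and the part of the background in the low fold enrichment and in the number of regions was not tested. At TNIP1 the background reached 12.3 and 13.1 fragments in replicates 1 and 2, at IL6R 12.5 and 13.1, and at CSF1 12.4 and 13.4. The low median rested on IL6R, TNIP1 and IL1R1: without them it was 4.21, above that of all shared regions, while the background stayed higher, at 5.86 and 6.85.

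At these regions the replicates differed by a median absolute log2 ratio of fold enrichment of 0.13 against 0.17 over all shared regions. Replicate 1 was the higher library in 21 of 34. The regions were also similar in width, with a median of 468.5 bp against 427 bp, and 10 of 34 were 600 bp or wider (29.4% against 22.4%).

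**Figure D4:**
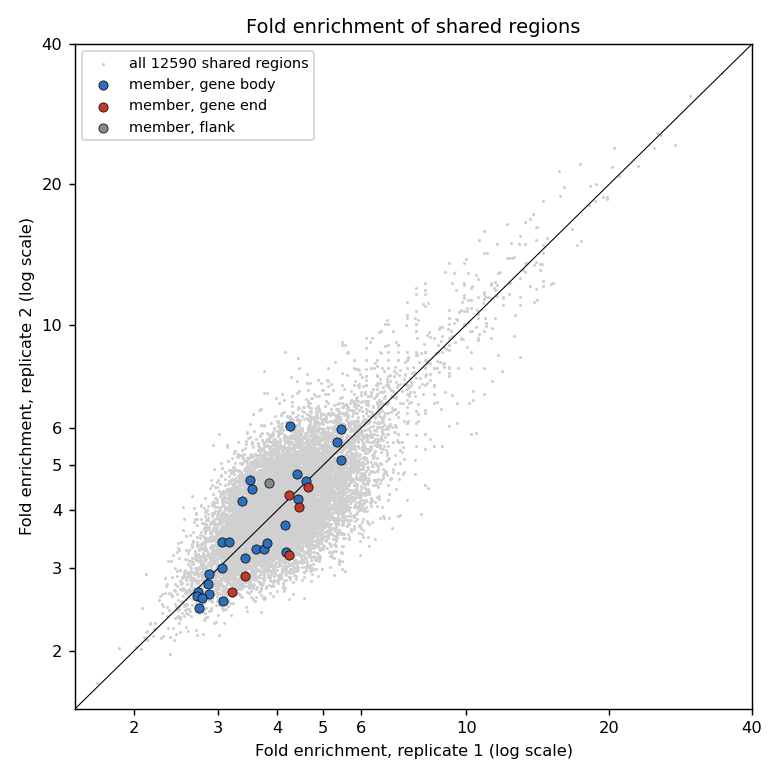
Fold enrichment of each shared region in replicate 1 and replicate 2, both on log scales, for the regions of the 40 genes by position (blue in bodies, red at ends, dark grey in the flank) over all 12590 shared regions (pale grey), with the line of equal values. By mean percentile rank, 16 of the 34 coloured points lie below the 25th percentile of all shared regions (47.1%, against 20.2% of all). A further 4 lie above the 75th (11.8% against 20.02%), and none is above 6.06 in either library.

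**Figure D5:**
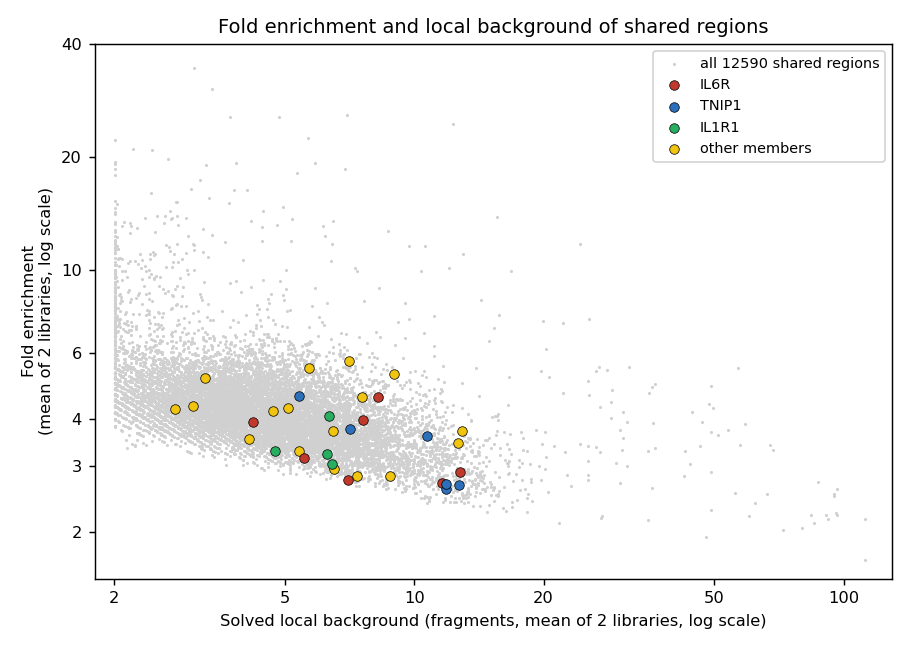
Fold enrichment against the solved local background in fragments, means of the 2 libraries on log scales, for the regions of IL6R (red), TNIP1 (blue), IL1R1 (green) and the other genes of the list (yellow) over all 12590 shared regions (pale grey). The weakest TNIP1 regions and the weakest IL6R region lie at the right, where the background is high. The CSF1 regions, at 3.46 and 3.72, lie there too, while an IL6R region at 2.76 had a background of 6.68 and 7.32. The median background of the 34 regions was 6.43 and 7.07 fragments in replicates 1 and 2.

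A further 3 lists of the pathway, 147 genes in all, were examined in the same way, with all symbols found. Of 58 components upstream of NF-kB or controlling it, 28 had a shared region (48.3% against 26.8% of all protein-coding genes), 7 of them at an end (12.1% against 6.34%) and 17 in the body (29.3% against 18.8%). These are long genes, with a median of 38.4 kb, and in genes of similar length the shares were 29.5%, 6.38% and 22.04%. The end regions were at IRAK1, a kinase of interleukin-1 signalling (5.37 ± 0.438), PDLIM2, which promotes RELA degradation (4.62 ± 0.0724), NKIRAS2 (4.29 ± 1.12), TLR1 (3.99 ± 0.574), OTUD7B (3.55 ± 0.0233), the IKK scaffold gene IKBKG (3.36 ± 0.344) and RBCK1, a part of the linear ubiquitin ligase (2.72 ± 0.190), all as fold enrichment with SD and n = 2. The strongest in gene bodies were at CUL1 (6.12 ± 0.855), the adaptor gene TRAF3 (5.94 ± 0.0928) and CARD10 (5.64 ± 0.528).

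Of 65 other inflammatory genes, mostly products of NF-kB targets, 17 had a shared region (26.2%), 4 at an end (6.15%) and 10 in the body (15.4%), against 26.8%, 6.34% and 18.8% of all protein-coding genes. These are short genes, with a median of 9.165 kb, and in genes of similar length the shares were 20.7%, 6.98% and 10.9%. The end regions were at ELF3 (4.52 ± 0.928), TNFRSF9 (4.03 ± 0.600), LTA, the lymphotoxin gene next to TNF (3.94 ± 0.530), and TAP1 (3.63 ± 0.496), and the strongest in bodies at TNFAIP8 (5.45 ± 0.584), IL18 (5.23 ± 0.442) and CD44 (4.98 ± 0.331; SD, n = 2 for each). Of 24 genes of the interleukin-6 family, STAT3 and related receptors, 10 had a region (41.7%), 6 at an end (25%) and 6 in the body (25%), against 26.8%, 6.34% and 18.8% of all protein-coding genes. Their median length was 35.6 kb, and in genes of similar length the shares were 27.98%, 6.499% and 19.97%. Those at an end included the kinase gene TYK2, with the highest fold enrichment of these lists at an end (5.99 ± 0.648), PIAS3, an inhibitor of STAT3 (4.39 ± 0.757), SOCS3, the feedback inhibitor of interleukin-6 signalling (4.23 ± 0.392), and STAT3 itself (3.63 ± 0.0369). CNTF had 3.85 ± 0.0573 and IL11RA 3.33 ± 0.663. In gene bodies the strongest was at OSMR, the oncostatin M receptor (5.15 ± 0.626), and TYK2 and STAT3 also had regions there (4.33 ± 0.394 and 4.09 ± 0.810; SD, n = 2 for each).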

How the data were processed

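DEK ChIP-seq of 786-O cells was analysed from 2 peak lists, 1 per library. Per the submitters' processing notes, the build was GRCh38 (hg38) and the tools, given with no roles, included MACS2 2.2.7.1 and Bowtie2 2.2.5 beside deepTools 3.5.1, cutadapt 1.18, ChIPseeker 1.32.1 and DiffBind 3.6.5. No source used here says whether peaks were called against a control library. The authors deposited for each peak a fold enrichment, which is a linear ratio taken at the summit in that library, a −log10 p and a −log10 q of the same position, and a score that is 10 times the −log10 q; the deposited offset gives the summit. The smallest −log10 q was 1.31 and 1.30 in replicates 1 and 2, near that of q = 0.05.

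Peaks outside chromosomes 1 to 22 and X were left out (0.591% and 0.5% of the peaks). A region took, per library, the values of its strongest peak, and its summit was the midpoint of these peaks' summits. The summit pileup was the whole number that met the deposited p within a relative 5e-05 (100% of peaks), with fold enrichment taken as (pileup + 1) over (background + 1). Gene spans and promoters came from RefSeq tables of GRCh38.p14, which give 1 row per gene. Each gene of a length band weighed equally for its list gene. All 40 genes are named, and of the further lists every gene with an end region and the 3 strongest in the body. The genes and lists were chosen with earlier results of these data known. The regions and gene classes were checked on simulated peaks, with Python 3.11.15, pandas 2.3.3, numpy 2.4.6 and scipy 1.17.1.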

Additional observations from a re-analysis of the deposited data

How the results depend on the processing

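No paired analysis was possible because there is 1 group. The differences from genes of similar length stayed positive under every alternative run, apart from that at gene ends with a fold enrichment of at least 5. Of 58 alternative values, 33 stayed within 1.5 times of a count or within the spread between replicates. For the percentage points this spread was that of the runs on 1 library alone. Those runs are themselves among the 58, so that their staying within it was largely built in. With −log10 q of at least 5, 2 genes had a region at an end and 8 a region anywhere (5% and 20%, against 2.29% and 12.3% of all protein-coding genes), the median fold enrichment was 4.42 and the difference at ends from genes of similar length was 2.50 percentage points, in place of 8.18. With a fold enrichment of at least 5 these were 0, 3 (7.5%, against 2.78% of all), 5.47 and -0.562, with 3 genes in the body and a difference there of 6.315 in place of 9.56. Both filters remove weaker peaks and so lift the median. The median of all shared regions under them was not taken, so neither 4.42 nor 5.47 can be set beside the unfiltered 4.12. With 50% reciprocal overlap the differences were 4.69 at ends and 12.15 in bodies, and with summits within 100 bp 2.84 and 11.0, with 3 genes at an end (7.5%, against 4.37% of all). End windows of 500 bp gave 3 genes and differences of 2.71 and 8.79, and windows of 3 kb 10 genes and 11.1 at ends. Placing regions by overlap gave 7.64 in bodies. Any peak of 1 library alone gave 18 to 22 genes with a peak (45% to 55%, against 35.9% to 41.5% of all) and a median of 3.33 to 3.47. Leaving out IL6R, TNIP1 and IL1R1, chosen after seeing the data, gave a median of 4.206. The lowest summit of a called peak held 9 fragments in each library. Peaks were called over the estimated background, so this was no fixed limit, and more fragments were needed where the background was high. Weaker occupancy was not detectable at this depth.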
